A study of Adonis amurensis with 6 samples.

Results

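The genes described here are the unigenes of *Adonis amurensis* whose best Swiss-Prot match was named FLOWERING LOCUS T (FT), HEADING DATE 3A, TERMINAL FLOWER, CENTRORADIALIS, CEN-like or MOTHER of FT, the names of the FT and TFL1 family. A unigene is a transcript sequence assembled from the reads without a genome. Of the 190353 unigenes in the deposited table, 6 carried such a name. All 6 were named Protein HEADING DATE 3A, which is an FT protein of rice, so all 6 were FT-like. No unigene of the table used here carried a TERMINAL FLOWER, CENTRORADIALIS, CEN-like or MOTHER of FT name, and the description below is therefore of FT-like genes.

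*A. amurensis* is a perennial of the family Ranunculaceae that flowers in early spring at low temperature. The plants grew in an open field, and floral organs of all stages were taken at the same time. The bud stages were flower bud differentiation, called FBD, the young alabastrum or unopened bud, YA, and the visible color alabastrum, VCA. The flower stages were early flowering, EFS, full bloom, FBS, and the senescing flower, SFS. No treatment, genotype or plant age is given, and 1 library was sequenced per stage, 6 in all, so a difference between stages could not be set against the spread between plants.

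FT and TFL1 belong to the family of phosphatidylethanolamine-binding proteins (PEBP). In Arabidopsis, FT is made in the phloem of the leaf when CONSTANS is active in long days, travels to the shoot apex and there, with 14-3-3 proteins and the bZIP factor FD, switches on SOC1, FRUITFULL and APETALA 1. TFL1 binds the same partners and delays flowering, and MOTHER of FT acts mainly in seeds. FT itself is thus best known from leaves and the apex before flowers form, whereas the libraries here are from buds and flowers.

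Levels are given as FPKM, the number of fragments divided by the length of the unigene and by the mapped reads of the library. The FPKM of a library summed to between 724656 and 755345, and between 72765 and 84815 unigenes were above 0. The number of reads is not part of the table. From the small values that many unigenes share, the depth relative to YA was between 1.01 (VCA) and 1.15 (EFS). Floral organ genes were present in all libraries, with a summed FPKM of 15 unigenes named GLOBOSA, AGAMOUS or SEPALLATA between 92.83 in FBS and 333.02 in YA. In FBD these were largely other unigenes than in the later stages. Those named SEPALLATA were above 0 in FBD alone, so the later sums are of GLOBOSA and AGAMOUS. Over the whole table, 52.1% of the unigenes that could be placed had an FPKM in FBD at least 20-fold above their mean over the later 5 libraries, 46.4% were on the opposite side by the same measure, and 1443 lay between. FBD is therefore given apart.

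The annotation of the 6 members was uniform. KEGG assigned all 6 to the orthology group of FLOWERING LOCUS T (K16223), and no other unigene of the table had this group. The best Arabidopsis match in KOG was At1g65480, which is FT, for all 6, and again for no other unigene. InterPro placed all 6 in the PEBP family, and 2 of them, Unigene30394 and CL238.Contig3, matched the PEBP domain PF01161 itself. These 2 also had the strongest Swiss-Prot matches, with e-values of 1.4e-79 and 1.2e-74, compared with 8.5e-37 for Unigene23649, 3.4e-34 for Unigene30393, 7.4e-21 for CL238.Contig1 and 1.2e-20 for CL238.Contig2. A weaker e-value goes with a shorter or less similar sequence, and the table gives neither lengths nor sequences. In Nr, the best match of CL238.Contig3 and of Unigene23649 was an FT-like protein of *Aquilegia formosa*, a plant of the same family as *Adonis*. The best match of Unigene30394 was an FT-like protein of *Fagus crenata*.

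CL238.Contig1, CL238.Contig2 and CL238.Contig3 are the 3 contigs of a single sequence cluster in the table, and reads that match more than 1 contig are divided between them. They are therefore not independent genes, and their summed FPKM is given beside the single values. Whether Unigene30394, Unigene30393, Unigene23649 and cluster CL238 are 4 genes or fewer cannot be read from the table.

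Unigene30394 was the FT-like unigene with the highest mean FPKM from YA to SFS, at 4.64. Its FPKM was 6.02 in YA, 12.10 in VCA and 3.67 in EFS, then 0.14 in FBS and 1.26 in SFS, and it was listed at 0 in FBD. It was the only member above 0 in all 5 later libraries. The values were high in YA and VCA, lowest from YA on at full bloom and were again above that point in the senescing flower. In VCA, 12.7% of the unigenes above 0 had a higher FPKM than Unigene30394, and in FBS 93.3% had.

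Cluster CL238 had another course. CL238.Contig3 was listed at 0 in FBD, YA and VCA, and its FPKM was 1.70 in EFS, 4.59 in FBS and 1.20 in SFS. CL238.Contig2 was at 0.67 in VCA, 1.11 in EFS and 1.93 in FBS and at 0 in FBD, YA and SFS. CL238.Contig1 was above 0 in FBS alone, at 1.70. All 3 contigs thus had their highest FPKM at full bloom, where Unigene30394 had its lowest from YA on. Summed over the cluster, the FPKM was 0 in YA, 0.67 in VCA and 2.81 in EFS, then 8.22 in FBS and 1.20 in SFS.

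Unigene23649 was above 0 in 4 libraries, at values within a narrow range. Its FPKM was 0 in FBD and YA, 1.80 in VCA and 1.16 in EFS, then 0.96 in FBS and 0.89 in SFS. Unigene30393 was above 0 in YA alone, at 0.67, and was the only member below an FPKM of 1 in every library. Of the 30 values of the members from YA to SFS, 13 were listed at 0 and 12 were at least 1.

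**Figure D1:**
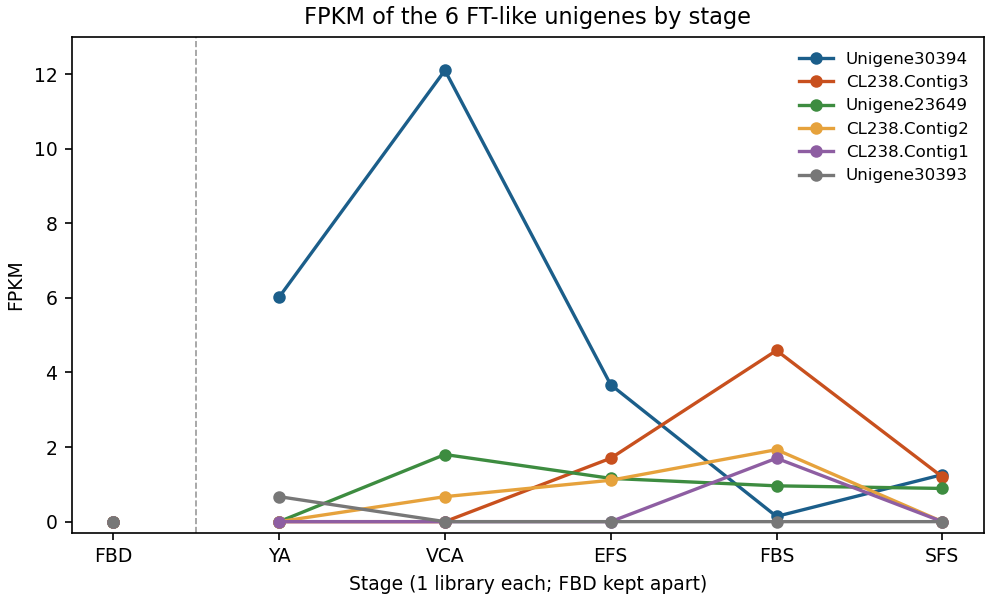
FPKM (vertical axis) of each of the 6 FT-like unigenes in the library of each stage (horizontal axis), with FBD left of the dashed line and 1 library per point. Unigene30394 peaks at 12.10 in VCA and is at 0.14 in FBS, where CL238.Contig3 peaks at 4.59, and all 6 unigenes are at 0 in FBD.

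Each FPKM was multiplied by the relative depth of its library and divided by the smallest such value of the unigene. CL238.Contig2 then stood at 1 in VCA, 1.88 in EFS and 2.99 in FBS, CL238.Contig3 at 1 in SFS, 1.56 in EFS and 3.85 in FBS, and Unigene23649 at 1 in SFS, 1.09 in FBS, 1.43 in EFS and 1.96 in VCA. Most of these were not within 0.1 of a whole multiple above 1. The depth of EFS rests on fewer unigenes at its peak (679) than that of VCA (2108), FBS (1545) or SFS (1547). Reads are also divided between the CL238 contigs, so their values need not be whole multiples. Among unigenes outside CL clusters with a smallest value of at least 0.3, 37.2% of the values between 1.5 and 3.5 times a unigene's smallest lay within 0.1 of 2 or 3, where an even spread would place 20%. Unigene30394 in FBS was the smallest of its values, and those in SFS, EFS, YA and VCA were 8.94, 28.6, 40.8 and 83.2 times as large. How many fragments the smallest value stands for is unknown, and no interval could be calculated.

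The sum over the 6 members did not show these opposite courses. It was 6.69 in YA, 14.57 in VCA and 7.64 in EFS, then 9.32 in FBS and 3.35 in SFS. Unigene30394 made up 90.0% of the sum in YA, 83.0% in VCA and 48.0% in EFS, then 1.5% in FBS and 37.6% in SFS. The share of the CL238 contigs was 0% in YA, 4.60% in VCA and 36.8% in EFS, then 88.2% in FBS and 35.8% in SFS. Between EFS and FBS the sum differed by 1.22-fold, less than the 2-fold ratio used as the threshold here, while its main contributor changed from Unigene30394 to the CL238 contigs.

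**Figure D2:**
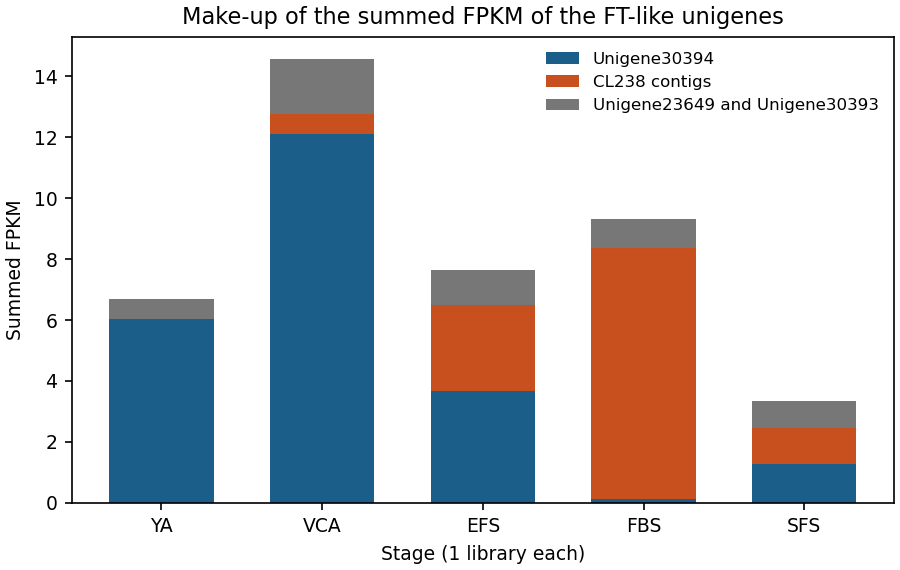
Summed FPKM of the FT-like unigenes (vertical axis) in the libraries from YA to SFS (horizontal axis), divided into Unigene30394, the 3 CL238 contigs and the other 2 unigenes. The sum is highest in VCA at 14.57, and the CL238 contigs hold 8.22 of the 9.32 in FBS.

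Both were also compared within each library, where the plain FPKM ratio does not depend on how libraries are scaled to each other. With the pseudocount it does where a value is near 0, as for CL238 in YA and Unigene30394 in FBS. On the log2(FPKM + 0.1) scale, the summed CL238 contigs relative to Unigene30394 stood at -5.94 in YA, -3.99 in VCA and -0.37 in EFS, then at 5.12 in FBS and -0.07 in SFS. In EFS and SFS both were within a 2-fold ratio of each other, and FBS was the only library in which CL238 was above Unigene30394. This comparison was chosen after the values were seen.

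Stages were compared by the log2 ratio of FPKM + 0.1. A unigene passed the filter when 1 or both libraries of a pair had an FPKM of 1 or more, and it counted as higher or lower from a log2 ratio of 1, which is 2-fold. Such ratios understate the difference of unigenes with a low FPKM. No p-value was calculated, because each stage is a single library. Consecutive pairs share a library, so that an unusual value in 1 library enters 2 pairs.

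From YA to VCA, 2 members passed the filter. Unigene23649, listed at 0 in YA and at 1.80 in VCA, was higher in VCA, as were 30.0% of all 72356 unigenes tested. None was lower, compared with 31.8% of all. Unigene30394 was 2.01-fold as high in VCA by FPKM, a log2 ratio of 0.995 that stayed just under the threshold because of the pseudocount.

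From VCA to EFS, 4 members passed. CL238.Contig3, listed at 0 in VCA, was higher in EFS (28.0% of all tested), and Unigene30394 was lower with a log2 ratio of -1.69 (38.3% of all). Unigene23649 and CL238.Contig2 differed by less than 2-fold, at -0.59 and 0.65. The median over all tested unigenes was -0.37 and that of the 4 members 0.03.

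From EFS to FBS, 5 members passed. Unigene30394 was lower in FBS with a log2 ratio of -3.97, and 11.7% of all tested unigenes had a ratio this low or lower. It was the only member lower in FBS, compared with 32.5% of all tested unigenes. CL238.Contig3 was 2.7-fold as high in FBS (log2 ratio 1.38), and CL238.Contig1 was above 0 in FBS alone. These 2 contigs made the members higher in FBS, compared with 33.0% of all.

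From FBS to SFS, 4 members passed and all 4 were past 2-fold. The 3 CL238 contigs were lower in SFS (35.8% of all tested), CL238.Contig3 with a log2 ratio of -1.85 and the other 2 down to a listed 0. Unigene30394 was higher in SFS with a log2 ratio of 2.50 (29.1% of all). When the contigs of a cluster were summed first, 1 of 2 was higher and 1 lower.

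Over the whole range from YA to SFS, 2 members passed. Unigene30394 was lower in SFS with a log2 ratio of -2.17 (46.8% of all tested) and CL238.Contig3, listed at 0 in YA, was higher (29.1% of all). The median over all tested unigenes was -0.78. As most unigenes that passed the filter were past 2-fold in each pair, passing this threshold does not set a member apart.

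**Figure D3:**
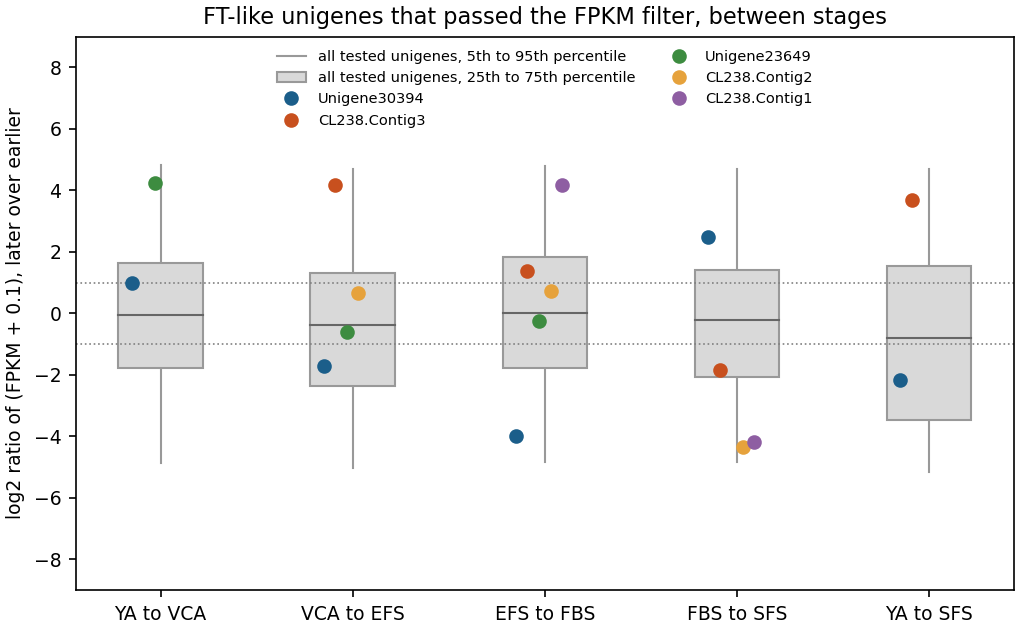
Log2 ratio of (FPKM + 0.1), later over earlier stage (vertical axis), for the FT-like unigenes that passed the filter (coloured points) in each pair of stages (horizontal axis). Grey lines span the 5th to the 95th percentile of all tested unigenes, boxes the 25th to the 75th with the median, and dotted lines mark 2-fold. Unigene30394 lies at -3.97 from EFS to FBS, within the grey line of all tested unigenes.

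All 6 members were listed at 0 in FBD. Of the 48275 unigenes with a mean FPKM of at least 1 over the other 5 libraries, 75.2% were also listed at 0 in FBD. The 2 members that reached this mean, Unigene30394 and CL238.Contig3, were therefore on the side of the other 5 libraries, none was on the side of FBD, and the other 4 were below the filter. No unigene with an FT name or with K16223 was above 0 in that library.

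Beyond the 6 members, InterPro gave the PEBP domain to 3 unigenes without a Swiss-Prot match. KEGG placed them in the group of uncharacterized proteins K06910, which is not the FT group. Unigene33888 was abundant, with an FPKM of 27.91 in YA, 31.94 in VCA and 23.52 in EFS, then 87.42 in FBS and 22.92 in SFS, and of 0.25 in FBD. Like the CL238 contigs it was highest in FBS, with a log2 ratio of 1.89 from EFS. CL25987.Contig3 and CL25987.Contig2 had an FPKM of 51.82 and 33.86 in FBD and of at most 0.17 in the other libraries. This protein group was thus represented by different unigenes in FBD and in the later stages, whereas the FT-like group was at 0 in FBD.

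The unigenes outside the family whose course from YA to SFS was closest to Unigene30394 were sought among 13008 with a Swiss-Prot name and a mean FPKM of at least 5, by the root mean square difference of log2(FPKM + 0.1) over these 5 libraries after each unigene was centred on its mean. The closest was Unigene106016 (Potassium transporter 2), with a difference of 0.23 and an FPKM of 27.30 in YA, 37.50 in VCA and 15.90 in EFS, then 0.91 in FBS and 4.23 in SFS. Unigene21809 (histone H2B) followed at 0.28 and CL28852.Contig1 (a pentatricopeptide repeat protein) at 0.29. Chosen for this likeness, all 3 had their highest FPKM in VCA and their lowest from YA on in FBS, as Unigene30394 did.

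The genes that act with FT were taken by Swiss-Prot name in 15 groups, of which 12 were found in the table with 195 unigenes. No unigene of the table used here was named for FKF1 (ADAGIO protein 3), FLC or FT-INTERACTING PROTEIN. From EFS to FBS, 17 of the 79 unigenes of these groups that passed the filter were higher and 22 lower in FBS. From FBS to SFS, 14 of 72 were higher and 16 lower. The corresponding counts were 12 and 12 of 84 from YA to VCA, 14 and 27 of 86 from VCA to EFS and 20 and 34 of 89 from YA to SFS. In each pair and direction this share was below that of all tested unigenes, which were not matched to these groups by FPKM. Contigs of a cluster were counted singly in these groups, so the counts are not of independent genes.

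Among the genes upstream of FT, the CONSTANS-like group had the highest summed FPKM from YA on. In Arabidopsis, CONSTANS activates FT in long days, and many of its relatives have other roles. The summed FPKM of its 51 unigenes was, from YA on, between 445.51 in VCA and 579.59 in FBS. Its leading unigene, CL11691.Contig2 (CONSTANS-LIKE 4), was between 139.39 and 182.43 from YA to SFS. From EFS to FBS, 8 of 22 CONSTANS-like unigenes were higher, near the 33.0% of all tested unigenes, and 2 were lower, compared with 32.5% of all. The NF-Y subunits, which bind DNA together with CONSTANS, summed to 270.01 in VCA and 161.56 in SFS over 56 unigenes, their highest and lowest sums from YA on. GIGANTEA, a clock protein that raises CONSTANS, summed to 73.01 in FBD and, from YA on, to between 22.10 in YA and 32.84 in EFS. The CYCLIC DOF FACTORS, which repress CONSTANS, summed to 101.30 in EFS and 23.78 in SFS, and 3 of the 4 that passed were lower in SFS than in FBS, compared with 35.8% of all tested unigenes. The 3 included contigs of a single cluster, CL15344.

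Among the repressors of FT, SVP and JOINTLESS, its relative in tomato, were low. Their summed FPKM over 8 unigenes was 6.21 in YA, 4.61 in VCA and 10.16 in EFS, then 1.12 in FBS and 0.63 in SFS. All 3 that passed the filter from EFS to FBS were lower in FBS, compared with 32.5% of all tested unigenes. These 3 included contigs of a single cluster, CL28920. The RAV group, which includes TEMPRANILLO in Arabidopsis, summed to 23.73 in FBD and, from YA on, to between 10.42 in EFS and 17.02 in SFS. Its leading unigene Unigene20688 (RAV2) was at 8.57 in YA and 16.94 in SFS.

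The partners of FT differed widely in level. FD was low, with Unigene90999 at 0.78 in YA and 0 in every other library and CL8259.Contig2 at 7.17 in FBD and 0 in every other library. The 14-3-3 group summed, from YA on, to between 1032.56 in FBS and 1327.82 in SFS over 27 unigenes. None of the 13 that passed was past 2-fold from YA to VCA (30.0% of all tested unigenes were higher and 31.8% lower). None of the 14 was from VCA to EFS (28.0% and 38.3%). From EFS to FBS, 5 of 14 were lower (32.5%) and none higher (33.0%). From FBS to SFS, 3 of 13 were higher (29.1%) and 1 lower (35.8%). From YA to SFS, 2 of 13 were higher (29.1%) and 4 lower (46.8%). The 5 lower in FBS included contigs of a single cluster, CL19063.

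Among the targets of FT, the APETALA 1 group had its highest sum in FBS, as the CL238 contigs did. Its 5 unigenes summed to 15.95 in YA, 13.50 in VCA and 18.32 in EFS, then 45.65 in FBS and 19.67 in SFS, and 3 of 4 were higher in FBS than in EFS, compared with 33.0% of all tested unigenes. The leading one, Unigene11162, was at 17.36 in EFS, 24.22 in FBS and 15.66 in SFS, and Unigene32254 at 0.12, 13.21 and 0.26. The FRUITFULL or AGL8 group had its highest sum in VCA, as Unigene30394 did, at 30.63, with 9.09 in EFS, and 6 of 7 were lower in EFS than in VCA, compared with 38.3% of all tested unigenes. Most of these 7 are contigs of clusters CL3032 and CL3350. The APETALA 1 and FRUITFULL or AGL8 groups were divided by Swiss-Prot name alone. Cluster CL3350 had contigs in both groups. These were all highest in FBS, at 5.60 under APETALA 1 and at 9.48 and 8.56 under AGL8. From YA on, SOC1 summed to between 4.87 in VCA and 8.95 in YA, and LEAFY was at 0 from YA to FBS and at 2.08 in SFS.

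In FBD, 11 of the 12 groups had at least 1 unigene that was 20-fold or more higher there than in the other 5 libraries, 89 unigenes in all, with 81 on the other side, a split close to the 52.1% and 46.4% of all unigenes. The exception was APETALA 1, which summed to 0.26 in FBD. The FRUITFULL or AGL8 group summed to 22.20 there. The contigs of cluster CL3350, which both groups share, were at 0 in FBD. FD summed to 7.17 in FBD, LEAFY to 16.71, SVP and JOINTLESS to 29.24 and SOC1 to 23.42, each above its sum in the later libraries. The same held for GIGANTEA (73.01), NF-Y (417.75), RAV (23.73) and 14-3-3 (1369.45). The CONSTANS-like, CYCLIC DOF FACTOR, FRUITFULL or AGL8 and APETALA 1 groups had their highest sum in a later library. In FBD the FT-like unigenes and the APETALA 1 group were at or near 0 while FD, LEAFY and FRUITFULL or AGL8 were above 0. From YA on, FT-like and APETALA 1 unigenes were above 0 in every library, FD in YA alone and LEAFY in SFS alone.

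**Figure D4:**
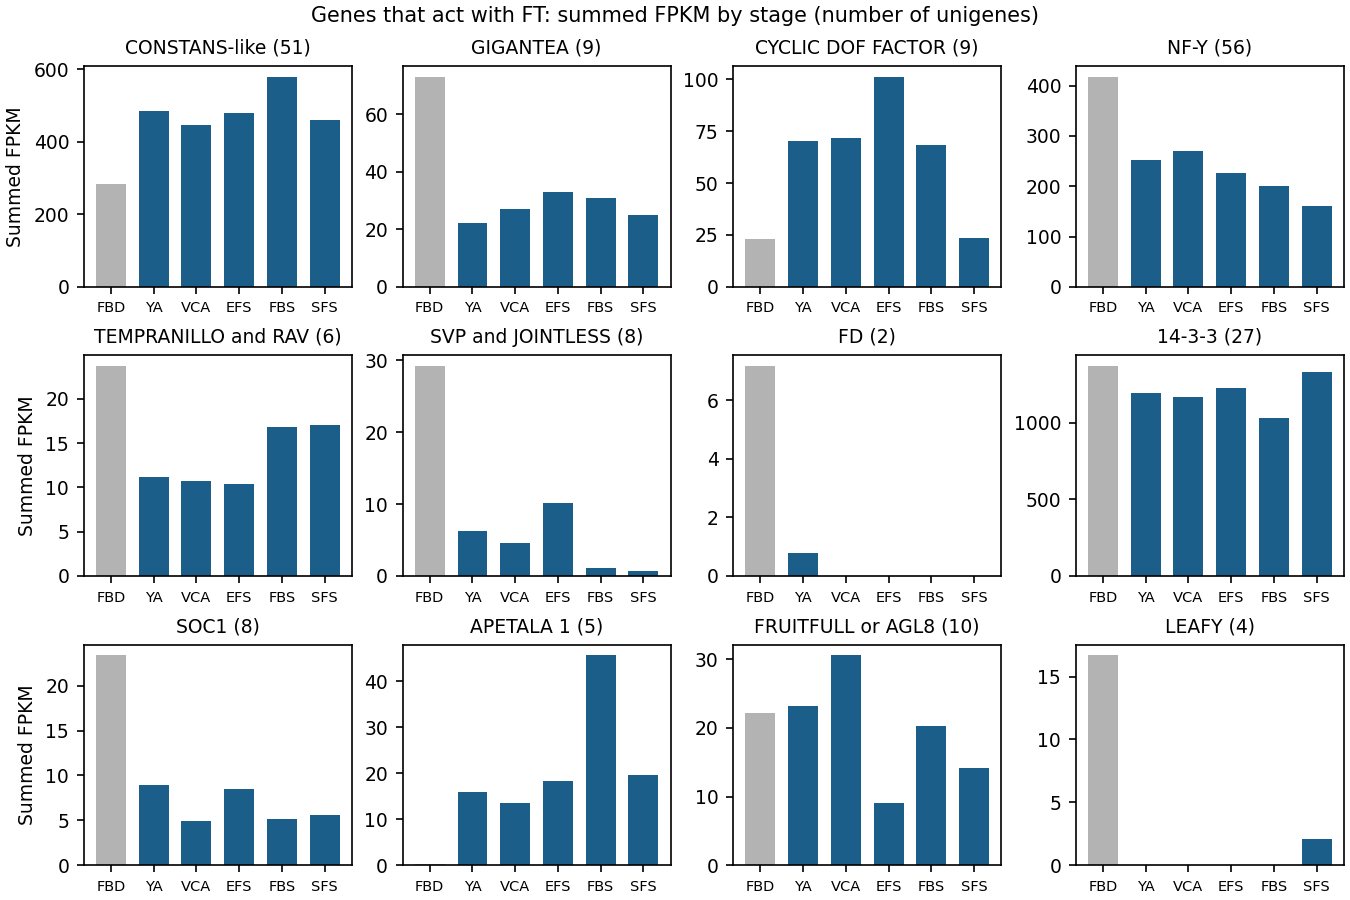
Summed FPKM (vertical axes, each from 0) of the 12 groups of genes that act with FT in each library (horizontal axes), with FBD in grey and the number of unigenes in brackets. APETALA 1 is highest in FBS at 45.65 and FRUITFULL or AGL8 in VCA at 30.63, while FD and LEAFY are among the groups highest in FBD, at 7.17 and 16.71.

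In bulk samples fewer cells of a type cannot be told apart from less RNA per cell. The floral organ genes summed to 333.02 in YA, 292.58 in VCA and 170.72 in EFS, then 92.83 in FBS and 134.36 in SFS, with 6 of 8 lower from EFS to FBS (32.5% of all tested) and 6 of 8 higher from FBS to SFS (29.1% of all), the same directions as Unigene30394. The leading one, Unigene23673 (GLOBOSA), was between 79.66 in FBS and 159.63 in YA and stayed under 2-fold in both pairs. The 6 that were higher from FBS to SFS were all AGAMOUS contigs of a single cluster, CL18186. So were the 6 lower from EFS to FBS, except a GLOBOSA contig that was also lower from FBS to SFS. These counts are therefore not of independent genes. The green tissue genes, for the small subunit of Rubisco and the chlorophyll-binding proteins, were also lowest in FBS, at 5335.94 compared with 12542.16 in EFS and 17314.20 in SFS over 107 unigenes. The phloem genes, from the tissue in which FT is made in leaves, summed to 14.96 in YA, 26.86 in VCA and 25.85 in EFS. Their sums were 32.54 in FBS and 36.16 in SFS. All 7 unigenes were named PHLOEM PROTEIN 2-LIKE, and no SIEVE ELEMENT OCCLUSION or SUC2 name was found. Of the 7, 4 were on the side of FBD, so the sums from YA on rest largely on the other 3. The seed or embryo genes, named for storage proteins or oleosins, summed to 323.47 in YA and 70.39 in FBS over 41 unigenes. Of these, Unigene17267 (Vicilin-like antimicrobial peptides 2-2) was at 171.64 in YA and 0.63 in FBS. Unigene11379 (Oleosin Bn-III) was at 71.84 and 0.66. From EFS to FBS, 6 of 21 were higher (33.0% of all tested) and 7 lower (32.5% of all). The part of these differences in the values of the FT-like unigenes was not tested.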

How the data were processed

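The authors extracted total RNA from floral organs with TRIzol, sequenced 1 Illumina library per stage, assembled the reads with Trinity, clustered contigs into unigenes and annotated them against public databases. The deposited values are FPKM, calculated by the authors with RSEM and given to 2 decimals. The sources used here do not give tool versions or read numbers. The table used here has 190353 unigenes, and 2 of its lines were empty. Column names give the stage, which is also the title of each sample.

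Members and lists were chosen by Swiss-Prot name, with earlier results of these data known. Named are every member that reached an FPKM of 1, the 3 unigenes with the closest course to the leading member, and the leading unigene of a group. Unigene30393, Unigene32254, Unigene11379, CL8259.Contig2, the 3 other unigenes with a PEBP domain and the clusters outside the family fall outside this rule. They were named after their values were seen. Ratios used a pseudocount of 0.1, a filter at an FPKM of 1 and a threshold of 2-fold. Alternatives were pseudocounts of 1 and 0.01, no filter and one at 5, 3 scalings, summed clusters, PEBP domains as the rule, and other thresholds for FBD. Relative depth was the peak in log2 ratios to YA for FPKM values from 0.2 to 2 (width 0.02 to either side). The ratio step was tested on simulated data, where 100 of 100 raised and 100 of 100 lowered unigenes (4-fold, among 20227 drawn from YA values of at least 5) were recovered and 0 unchanged ones were counted. The simulation holds no low values. Python 3.11.15, numpy 2.4.6, pandas 2.3.3 and matplotlib 3.10.9 were used. The proteome, the qPCR and sequences were not analysed here.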

Additional observations from a re-analysis of the deposited data

How the results depend on the processing

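With 1 library per stage, the spread between plants is unknown for ratios of any size. From YA to VCA, where 1 member was past 2-fold, the count was 2 at a pseudocount of 0.01 and after division by the median ratio, 3 without the filter and 0 at a filter of 5. From VCA to EFS (2 members) it was 1 at a filter of 5 and, in an alternative chosen after seeing the data, 1 without Unigene30394. From FBS to SFS (4 members) it was 2 with clusters summed, and at a pseudocount of 1 Unigene30394 had a log2 ratio of 0.99 and was no longer past 2-fold. From YA to SFS (2 members) it was 4 without the filter, 1 at a filter of 5 and 1 without Unigene30394. At a filter of 5 no member was left from EFS to FBS or from FBS to SFS.

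The summed FPKM of the members in SFS relative to YA had a log2 ratio of -0.98. It was -0.037 after division by the summed actin FPKM and 1.51 without Unigene30394, so its direction rests on that unigene. These scalings multiplied every unigene alike, the median ratio by 0.843 in YA and 1.16 in SFS and the actin sum by 0.884 and 1.72. Unigene30394 stayed lower in EFS than in VCA (-1.48 to -1.85) and in FBS than in EFS (-2.03 to -4.62) under each pseudocount and scaling. The members on the side of the 5 later libraries were 5 in place of 2 when an FPKM of 0.2 was asked for. The ratio of the CL238 contigs to Unigene30394 kept its sign in every library under both other pseudocounts and with CL238.Contig3 alone, at 3.02 to 5.78 in FBS. Of 71 alternatives, 50 stayed close to the reported value (counts within 1.5 times, ratios within 1.5-fold), 20 moved further and 1 reversed. No TFL1-like or MFT-like sums could be calculated, because no unigene had these names. No paired analysis was possible because each stage has 1 library.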
